A study of Mus musculus with 8 samples.

Results

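Mineralization of cartilage depends on the balance between inorganic phosphate, which forms mineral with calcium, and inorganic pyrophosphate, which blocks the growth of its crystals. The 7 genes described here were chosen by name for their roles in this balance, out of 54658 gene symbols in the count table, and all 7 were found once. *Alpl* and *Phospho1* encode phosphatases that release phosphate. *Enpp1* and *Ank* encode the enzyme that makes pyrophosphate from extracellular ATP and a membrane protein that raises extracellular pyrophosphate. *Slc20a1* and *Slc20a2* encode the sodium-coupled phosphate importers PiT-1 and PiT-2, and *Mgp* encodes matrix Gla protein, a vitamin K-dependent inhibitor of calcification. In growth cartilage, mineral first forms in vesicles that hypertrophic chondrocytes shed, whereas healthy articular cartilage stays unmineralized above its calcified zone.

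RNA-Seq was performed on primary chondrocytes from the femoral head cartilage of 3-week-old wild-type mice, plated after collagenase digestion. In 4 samples the cells received IL-1β at 1 ng/mL for 24 h, and in the 4 control samples they received vehicle. Both groups grew in high-glucose DMEM with serum, and no other agent or allele distinguished them. How many animals entered a sample is not given, so the p-values measure the spread between these samples, which may be technical.

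Total counts were 10992355 to 17104351 per IL-1β sample and 13970959 to 17456063 per vehicle sample, of which a single noncoding gene, *Gm26917*, took 13.2 to 14.6%. No pair of samples of a group agreed within sampling noise, since chi-square per degree of freedom was 1.98 to 6.34. The highest values, 6.34 and 6.24, were those of vehicle replicate 4 with vehicle replicates 1 and 2, and the next was 3.26. Abundances are CPM, each gene's counts as a share of all counts of the sample after scaling with edgeR's TMM factors, given as mean ± SD (n = 4). All 9 chondrocyte markers examined (such as *Col2a1*, *Acan* and *Sox9*) were counted in every sample, and their summed abundance was 14791 to 15368 CPM in vehicle samples but 3723 to 4095 CPM in IL-1β samples. All 9 fell more than 2-fold, so that the markers of the labelled cell type were present in both groups but moved with the treatment. The 8 osteoblast and osteocyte markers summed to 184 to 204 CPM in vehicle samples but 109.7 to 128.9 CPM in IL-1β samples, with *Sost* at 0 and *Dmp1* at 1 count or less in every sample. The 6 fibroblast markers summed to 870.4 to 920.4 CPM in vehicle samples but 2022 to 2135 CPM in IL-1β samples, mostly *Prg4* (859 and 2017 CPM). The authors read Prg4 staining as a sign of preserved cartilage, so this sum is not specific to fibroblasts. *Dpt*, *Pi16* and *Thy1* had at most 11 counts in a sample, whereas *Pdgfra* (27.7 and 41.4 CPM) and *Cd34* (10.4 and 17.6 CPM) rose. The 6 osteoclast markers summed to 109.7 to 111.4 and 132.5 to 138.2 CPM. That sum was mostly *Ctsk*, since *Acp5*, *Calcr*, *Ocstamp*, *Dcstamp* and *Oscar* had at most 13 counts in a sample. The 7 leukocyte markers summed to 14.8 to 16.8 and 30.0 to 33.6 CPM. The leukocyte sum was mostly *Cd68* and *Cd14*, which rose, whereas *Lyz2* fell and *Adgre1* and *Itgam* had at most 3 counts in a sample. The 5 hypertrophic markers summed to 316.0 to 344.0 and 308.0 to 326.8 CPM, but these similar sums hold opposite changes, since *Mmp13* rose from 32.2 to 212 CPM while *Col10a1* fell from 102 to 12.7 CPM and *Pth1r* from 98.8 to 27.3 CPM. No endothelial or erythroid list exceeded 1.81 CPM in a sample. In such bulk samples, fewer cells of a type and less RNA per cell cannot be told apart, and the part of these shifts in the results below was not tested.

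The question was how IL-1β, a cytokine that drives cartilage inflammation, changed these 7 genes. *Mgp* fell to 32.1% of its vehicle level, *Alpl* to 63.8% and *Ank* to 77.2%. *Slc20a2* rose to 144% of its vehicle level. *Enpp1* fell slightly, to 92.5%, whereas *Slc20a1* (94.2%) and *Phospho1* (83.7%) did not pass the test. The test was edgeR's quasi-likelihood test, run on the 14404 genes that exceeded 1 CPM in 4 or more samples. For this filter, which all 7 members passed, CPM were taken over all counts without TMM scaling. Differentially expressed genes (DEGs) had a Benjamini-Hochberg adjusted p-value under 0.05 and a change of more than 2-fold. Of the 7 members, 1 was a DEG, *Mgp*, against 5.21% of all genes tested (2.35% lower and 2.86% higher). With the adjusted p-value alone, 5 members changed, against 40.2% of all genes, of which 4 were lower (19.8% of all genes) and 1 was higher (20.4% of all genes). The groups did not overlap for the same 5 members, against 36.8% of all genes. The median log2 fold change of the members was -0.26, beside 0.00 for all genes tested. With 7 members, this median is the value of *Phospho1*, which did not pass the test.

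**Figure D1:**
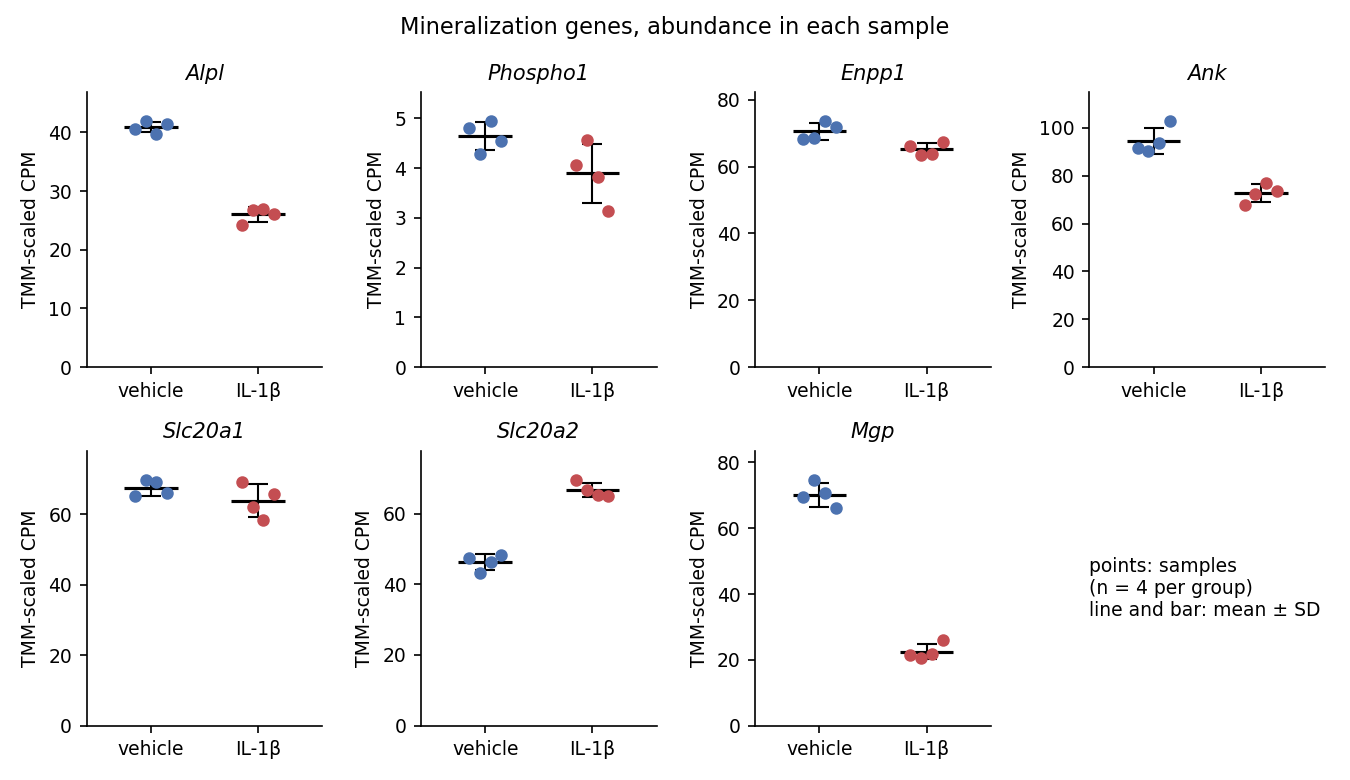
Abundance of each member in each sample (TMM-scaled CPM, axes from 0), with the 4 vehicle samples in blue and the 4 IL-1β samples in red; lines and bars are mean ± SD. *Mgp* drops from 66.0 to 74.7 CPM to 20.7 to 26.0 CPM, *Slc20a2* rises, and the groups overlap for *Phospho1* and *Slc20a1*.

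Among the phosphatases, *Alpl* (tissue-nonspecific alkaline phosphatase, which hydrolyses pyrophosphate to phosphate on the cell and vesicle surface) lies on chromosome 4 from 137741733 to 137796384 on the minus strand of GRCm38 (mm10). It had 40.6, 41.8, 39.8 and 41.4 CPM in vehicle replicates 1 to 4 and 24.2, 26.8, 26.9 and 26.1 CPM in IL-1β replicates 1 to 4. Every IL-1β sample lay below every vehicle sample, and the SD was 1.24 CPM in the IL-1β group but 0.909 CPM in the vehicle group. Its log2 fold change was -0.65 (standard error 0.0501, 95% confidence interval -0.75 to -0.55, adjusted p = 9.48e-12), short of 2-fold. Of all genes tested, 4.38% had a lower log2 fold change than *Alpl*. Of the 5 osteoblast and osteocyte markers tested, 4 were lower by the adjusted p-value alone and 0 were higher. Of the 4 hypertrophic markers tested, 3 were lower and 1 was higher. By the same criterion, 19.8% of all genes tested were lower and 20.4% were higher. *Sp7* (log2 fold change -1.42), *Col10a1* (-2.996) and *Runx2* (-0.52) fell, *Mmp13* rose (2.71), and *Col1a1* did not pass the test (-0.10, adjusted p = 0.0760). Their part in the fall of *Alpl* was not tested.

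*Phospho1* (chromosome 11, 95824499 to 95832140, plus strand) encodes the phosphatase that frees phosphate from phosphocholine and phosphoethanolamine inside matrix vesicles. It was the least abundant member, with 83, 74, 69 and 69 counts in the vehicle samples and 45, 63, 64 and 44 counts in the IL-1β samples. Scaled, the vehicle mean was 4.64 ± 0.286 CPM and the IL-1β mean 3.89 ± 0.595 CPM, and IL-1β replicate 2 lay above vehicle replicates 2 and 4. The change of -0.26 on the log2 scale had a standard error of 0.140 and did not pass the test (adjusted p = 0.154). Its 95% confidence interval ran from -0.54 to 0.03. Of the 2029 exon bases of *Phospho1*, 1818 (89.6%) are also annotated as exons of *Zfp652*, on the same strand, and 1708 (84.2%) as exons of *Abi3*, on the opposite strand. *Zfp652* averaged 59.2 CPM in vehicle samples but 66.2 CPM in IL-1β samples, so it moved the other way. How reads in shared bases were assigned is not given in the sources used here, so that the *Phospho1* level is uncertain.

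Among the genes of pyrophosphate supply, *Ank* (chromosome 15, 27466677 to 27594909, plus strand), whose product mediates release of ATP and pyrophosphate from cells, had 91.6, 90.5, 93.7 and 102.7 CPM in vehicle replicates 1 to 4. In IL-1β replicates 1 to 4 it had 67.9, 72.4, 77.1 and 73.7 CPM. Vehicle replicate 4 was the highest and IL-1β replicate 1 the lowest, and the groups were apart. The log2 fold change was -0.37 (standard error 0.0438, 95% confidence interval -0.46 to -0.28, adjusted p = 4.52e-08), and 9.55% of all genes tested lay lower.

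*Enpp1* (chromosome 10, 24637914 to 24712159, minus strand), the ectoenzyme that generates pyrophosphate, had 68.4, 68.4, 73.5 and 71.9 CPM in vehicle replicates 1 to 4 and 66.2, 63.5, 63.7 and 67.3 CPM in IL-1β replicates 1 to 4. The groups just failed to meet, with IL-1β replicate 4 next to vehicle replicates 1 and 2. The log2 fold change was -0.11 (standard error 0.0402, 95% confidence interval -0.20 to -0.03, adjusted p = 0.0253 from edgeR). This small fall depended on the test and on single samples. The adjusted p-value was 0.0639 with DESeq2, and 0.0647, 0.0686, 0.0878 and 0.0632 from edgeR without IL-1β replicate 2, IL-1β replicate 3, vehicle replicate 3 and vehicle replicate 4, respectively.

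Of the phosphate importers, *Slc20a2* (chromosome 8, 22476788 to 22569612, plus strand) was the only member that rose. It had 47.5, 43.2, 46.4 and 48.2 CPM in vehicle replicates 1 to 4 and 69.5, 66.6, 65.4 and 65.0 CPM in IL-1β replicates 1 to 4. Every IL-1β sample exceeded every vehicle sample, with a gap between the groups wider than the range of either. Its log2 fold change was 0.52 (standard error 0.0429, 95% confidence interval 0.44 to 0.61, adjusted p = 3.59e-11), and 7.59% of all genes tested lay higher. Of its exon bases, 1.53% are shared with the neighbouring gene *Smim19*.

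*Slc20a1* (chromosome 2, 129198764 to 129211616, plus strand), the paralog of *Slc20a2*, had 65.1, 69.6, 69.2 and 65.9 CPM in vehicle replicates 1 to 4 and 69.1, 61.9, 58.4 and 65.9 CPM in IL-1β replicates 1 to 4. The groups overlapped, with IL-1β replicates 1 and 4 among the vehicle samples. Its change of -0.09 on the log2 scale (standard error 0.0460) did not pass the test (adjusted p = 0.149), and the 95% confidence interval ran from -0.18 to 0.01. Without IL-1β replicate 1 the log2 fold change was -0.12 and the adjusted p-value 0.0326 from edgeR, so that its call depends on that sample. Opposite-strand genes share 13.1% of its exon bases, and each had under 3 CPM on average in either group.

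*Mgp* (chromosome 6, 136872435 to 136875823, minus strand), the matrix inhibitor of calcification, changed most. It had 69.3, 74.7, 70.7 and 66.0 CPM in vehicle replicates 1 to 4, and 21.6, 20.7, 21.7 and 26.0 CPM in IL-1β replicates 1 to 4. IL-1β replicate 4 was the highest of its group and still lay far below every vehicle sample. The log2 fold change was -1.64 (standard error 0.0562, 95% confidence interval -1.76 to -1.53, adjusted p = 6.37e-20), a 3.12-fold fall. Of the 14404 genes tested, 104 (0.722%) had a lower log2 fold change. Neither *Mgp*, *Alpl* nor *Enpp1* shares exon bases with another annotated gene. The chondrocyte markers fell with *Mgp*, among them *Col9a1* (log2 fold change -1.88) and *Snorc* (-1.74), and the part of a general loss of chondrocyte transcripts in the fall of *Mgp* was not tested.

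**Figure D2:**
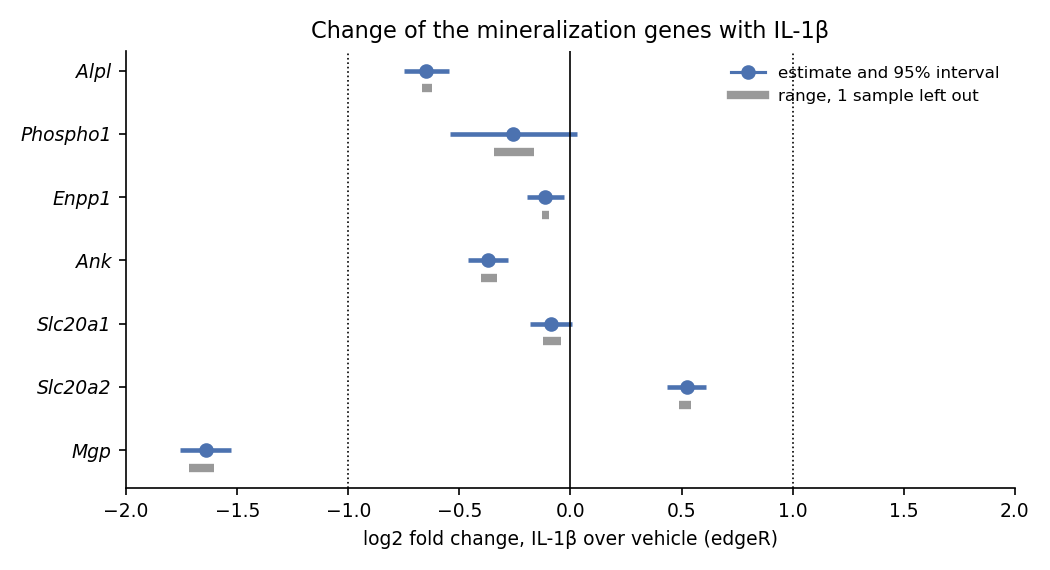
Log2 fold change of each member, IL-1β over vehicle (x axis), with the edgeR estimate and 95% confidence interval in blue and the range over the fits that leave out 1 of the 8 samples in grey. Dotted lines mark 2-fold; only the interval of *Mgp* (-1.76 to -1.53) lies beyond them, and those of *Phospho1* and *Slc20a1* include 0.

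To compare levels between genes, CPM were divided by the exon length in kilobases that accompanies the counts. In vehicle samples the order of the length-scaled levels was *Mgp* (59.1 ± 3.02 CPM per kilobase), *Ank* (26.2 ± 1.54), *Slc20a1* (12.1 ± 0.410), *Alpl* (10.1 ± 0.226), *Slc20a2* (7.45 ± 0.356), *Enpp1* (6.88 ± 0.250) and *Phospho1* (2.29 ± 0.141). Only *Slc20a2* and *Enpp1* were neighbours whose samples overlapped. With IL-1β the levels drew together into pairs that overlapped. *Ank* (20.2 ± 1.06 CPM per kilobase) stood beside *Mgp* (18.9 ± 1.99), *Slc20a1* (11.4 ± 0.833) beside *Slc20a2* (10.7 ± 0.328), and *Alpl* (6.45 ± 0.308) beside *Enpp1* (6.35 ± 0.182). *Phospho1* remained last, with 1.92 ± 0.293 CPM per kilobase, a value that the shared exons above leave uncertain. By the means, *Ank* thus stood above *Mgp* with IL-1β, although their samples overlapped, and *Alpl* moved from above to below *Slc20a2*.

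**Figure D3:**
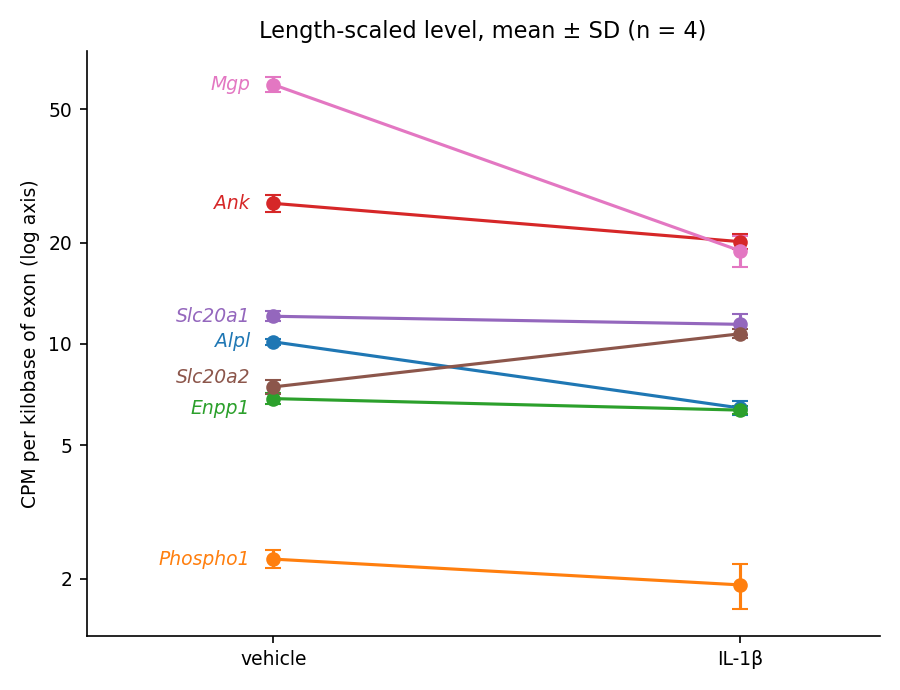
Length-scaled level of each member (CPM per kilobase of exon, log axis) with vehicle and IL-1β; points are means and bars SD (n = 4). *Mgp* falls from 59.1 to the level of *Ank*, *Slc20a2* rises to that of *Slc20a1*, and *Alpl* falls to that of *Enpp1*.

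Ratios within a sample describe the balance between members without depending on the scaling between libraries. They are given with no test, since the members were chosen with earlier results of these data known. The length-scaled *Alpl* level was 1.48 ± 0.0767 times that of *Enpp1* with vehicle and 1.02 ± 0.0700 times with IL-1β. On the log2 scale this ratio was 0.46 to 0.64 in the vehicle samples and -0.10 to 0.10 in the IL-1β samples, so the groups were apart. Between these transcripts, for degrading and for making pyrophosphate, the balance thus shifted away from *Alpl*, by 0.54 on the log2 scale. This holds for the pair only, since *Ank*, also a gene of pyrophosphate supply, fell too (log2 fold change -0.37, beside -0.65 for *Alpl*). *Enpp1* relative to *Ank* was 0.263 ± 0.0124 with vehicle and 0.316 ± 0.0220 with IL-1β, since *Ank* fell more. *Slc20a2* made up 39.6, 35.8, 37.6 and 39.6% of the length-scaled level of both importers in vehicle replicates 1 to 4 and 47.5, 49.1, 50.1 and 47.0% in IL-1β replicates 1 to 4. The summed level of both importers was 19.5 ± 0.242 CPM per kilobase with vehicle and 22.2 ± 1.08 CPM per kilobase with IL-1β.

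**Figure D4:**
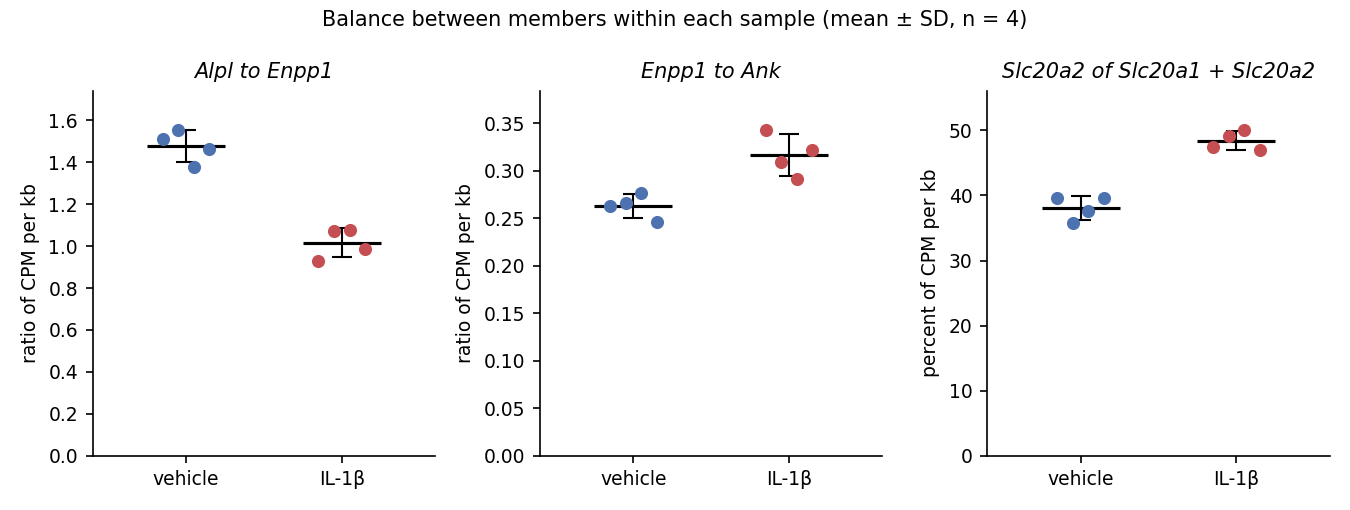
Ratio of *Alpl* to *Enpp1*, ratio of *Enpp1* to *Ank*, and percentage of *Slc20a2* in the sum of both importers, from length-scaled levels in each sample (axes from 0); vehicle in blue, IL-1β in red, mean ± SD. The groups are apart in all 3 panels, with the first ratio falling from 1.48 to 1.02 and the *Slc20a2* share rising from 38.1 to 48.4%.

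To place the members among other genes of mineralization, 5 lists of 69 gene symbols were read from the same fit. The count table held 68 of them, all but *Slc53a1*, which is another symbol of *Xpr1*, and 46 were tested. Of the 46, 9 were DEGs (19.6%, against 5.21% of all genes), 7 lower and 2 higher. The lists were chosen with earlier results of these data known, so this share is a description and not independent evidence. With the adjusted p-value alone, 20 of the 46 were lower, against 19.8% of all genes, and 13 of the 46 higher, against 20.4% of all genes. The median log2 fold change was -0.04. Each list held genes that were higher and genes that were lower. *Ibsp*, *Bglap*, *Bglap2* and *Pth1r*, described below, also belong to the osteoblast or hypertrophic marker lists above.

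The list of mineral-binding matrix proteins and their processing held 5 DEGs among 10 genes tested. *Ibsp* (bone sialoprotein, which binds mineral) fell from 16.1 ± 0.762 CPM in vehicle samples to 1.21 ± 0.247 CPM in IL-1β samples (log2 fold change -3.69). *Omd* (osteomodulin, a keratan sulfate proteoglycan of bone) fell from 31.3 ± 1.94 to 4.97 ± 0.755 CPM (log2 fold change -2.64). *Bglap* (osteocalcin, a Gla protein of osteoblasts) fell from 16.6 ± 0.417 to 5.43 ± 0.653 CPM (log2 fold change -1.62). *Bglap2*, named after its values were seen, had a log2 fold change of -1.10. Its sequence is nearly that of *Bglap*, so that the counts of these genes are uncertain. *Fam20c*, a Golgi kinase of secreted phosphoproteins, rose from 18.9 ± 1.64 to 55.1 ± 1.198 CPM (log2 fold change 1.54). For each of these 5 genes the groups did not overlap, against 36.8% of all genes tested. The 5 genes were selected as DEGs, so this separation adds no further support. The most abundant genes of the list, also named after their values were seen, changed less than 2-fold. *Spp1* (osteopontin, a phosphoprotein that inhibits mineral growth) rose (log2 fold change 0.80) and *Sparc* (osteonectin, a collagen-binding protein) fell (log2 fold change -0.61). *Ahsg*, *Dmp1*, *Mepe* and *Dspp*, chosen likewise, had at most 2 counts in any sample.

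In the list for matrix vesicles and the supply of phosphocholine, the DEG was *Smpd3*, a sphingomyelinase that acts upstream of *Phospho1* by releasing phosphocholine. It had 33.3, 34.4, 34.5 and 40.2 CPM in vehicle replicates 1 to 4 and 5.06, 6.08, 6.08 and 6.40 CPM in IL-1β replicates 1 to 4. All IL-1β samples were far below the vehicle samples (log2 fold change -2.58, standard error 0.0837, adjusted p = 1.82e-20 from edgeR). Of the 10 genes tested in this list, 3 were lower, 3 were higher and 4 did not pass the test, and the median log2 fold change was 0.03.

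In the list for nucleotides and pyrophosphate, the DEG was *Panx3*, a pannexin channel of chondrocytes and osteoblasts through which ATP can leave the cell. It fell from 49.0 ± 5.05 to 15.7 ± 0.998 CPM (log2 fold change -1.64). Of 11 genes tested, 4 were lower, 3 higher and 4 did not pass the test, with a median log2 fold change of 0.01. *Enpp2* (autotaxin, a relative of *Enpp1* that makes lysophosphatidic acid), named after its values were seen, had a log2 fold change of -0.95. *Nt5e*, chosen likewise, the ectoenzyme that converts AMP to adenosine, had 327 ± 4.51 CPM in vehicle samples but 338 ± 6.86 CPM in IL-1β samples, which did not pass the test (adjusted p = 0.222 from edgeR) although the groups did not overlap. *Abcc6*, also chosen so, a transporter that supplies ATP for pyrophosphate elsewhere in the body, had at most 7 counts in a sample, too few to be tested.

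In the list for phosphate transport and sensing, the DEG was *Pth1r*, the receptor of parathyroid hormone and its related protein. It fell from 98.8 ± 4.59 to 27.3 ± 1.90 CPM (log2 fold change -1.85). The exporter *Xpr1*, named after its values were seen, fell by 0.21 on the log2 scale (edgeR's adjusted p = 7.23e-06). The epithelial importers, chosen likewise, *Slc34a1*, *Slc34a2* and *Slc34a3* had at most 4 counts in a sample, beside a detection floor of 3 counts (0.172 to 0.273 CPM).

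Gamma-carboxylation is the vitamin K-dependent step by which Gla proteins such as Mgp become active. The list around it also held genes outside this step. Its DEG was such a gene, *Tgm2*, a transglutaminase that crosslinks matrix proteins. It rose from 16.3 ± 0.614 to 37.0 ± 2.56 CPM (log2 fold change 1.18), and 21.8% of its exon bases are shared with other genes. The carboxylase *Ggcx*, named after its values were seen, fell by 0.18 on the log2 scale (edgeR's adjusted p = 0.0165), and *Nqo1*, a quinone reductase chosen likewise, rose by 0.71. *Vkorc1*, also chosen so, which recycles vitamin K, had a log2 fold change of -0.27 and did not pass the test (adjusted p = 0.203). Of 10 genes tested, 4 were lower, 3 higher and 3 did not pass the test. These numbers include *Tgm2* and *Ctsk* (higher), *Bmp2* (lower) and *Bmp4* (not passing), which are not part of the carboxylation step.

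**Figure D5:**
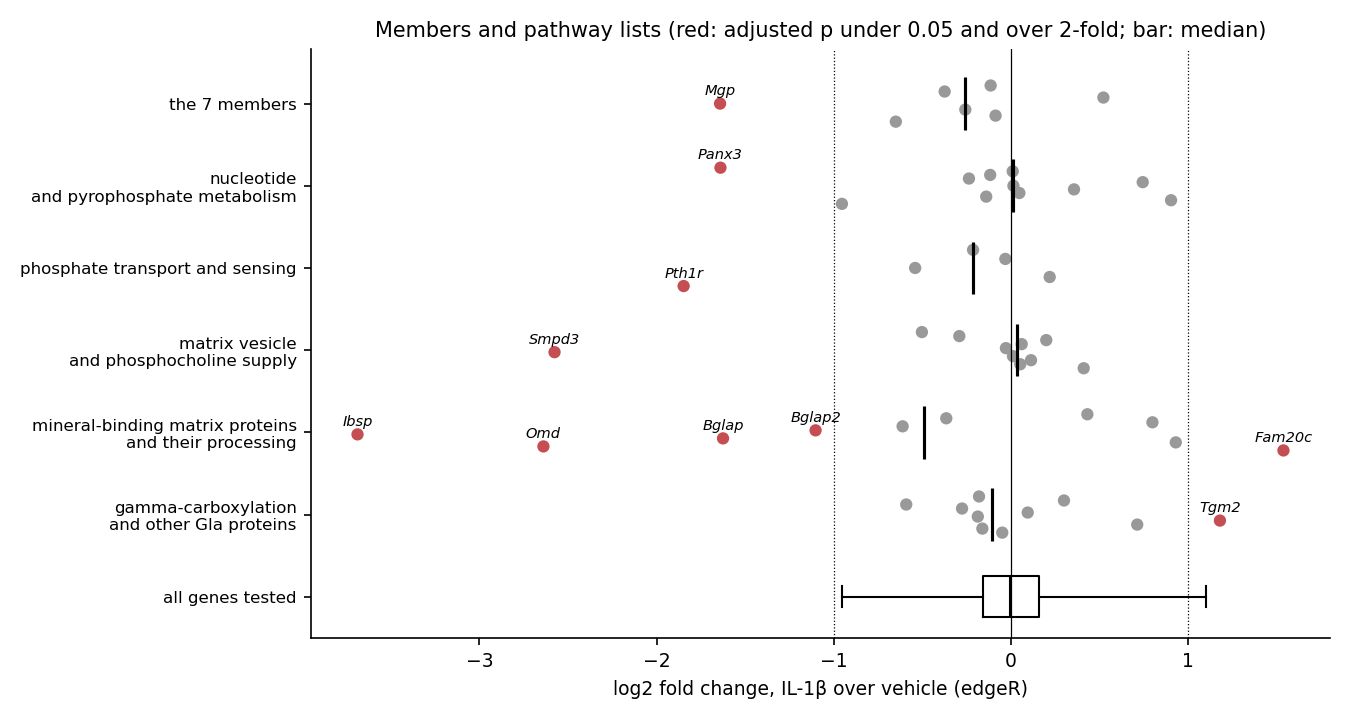
Log2 fold change (x axis, IL-1β over vehicle) of the 7 members and of the tested genes of 5 lists, with DEGs in red, other genes in grey and the median of each row as a bar. The box of all genes tested spans the middle quartiles, with whiskers from the lowest to the highest 2.5%. Outside the members, 7 DEGs lie to the left, down to -3.69 for *Ibsp*, and 2 to the right, up to 1.54 for *Fam20c*.

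Across the 8 samples, the genes with the pattern most like that of *Mgp*, among 8482 genes with a mean of at least 10 CPM, were *Col11a1* and *Ogn*, which encode a fibrillar collagen chain of cartilage and the small proteoglycan osteoglycin. The root mean square difference of the centred log2 CPM was 0.0895 and 0.0986, respectively. Such a difference is small only for genes with a similar change between the groups, so the like fold changes here follow from the selection. *Col11a1* had a log2 fold change of -1.63 and *Ogn* one of -1.75. For *Alpl*, the nearest were *Serpinh1* (a collagen chaperone, difference 0.0298, log2 fold change -0.64) and *Sparc* (difference 0.0348).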

How the data were processed

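The authors trimmed reads with cutadapt, aligned them to mm10 (GENCODE vM20) with STAR (2.4.2a in the submitters' processing notes, another version in the methods) and used featureCounts to count them per gene. The deposited table holds unscaled whole counts (54658 gene symbols) beside a column of gene lengths in bases (other unit, from the authors). The methods name a batch correction with RUVseq. Whether the deposited counts precede it is not stated, and neither is the strand setting of the counting.

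Counts were tested with edgeR 4.0.16 (limma 3.58.1, R 4.3.3), with treatment as the only term, TMM scaling and the filter given above. Prior degrees of freedom were 20.9. The code was tested on simulated data. Lengths of the 7 members equalled the exon lengths of GENCODE vM21 (GRCm38), used for positions and overlaps. The members and lists were chosen with earlier results of these data known. Named genes were the members, up to 4 DEGs by size of change per list, and the 2 nearest patterns for the 2 members with the largest change; other list genes in the text were chosen after their values were seen. Marker lists covered chondrocytes, hypertrophic chondrocytes, osteoblasts, osteoclasts, leukocytes, endothelium, fibroblasts and erythroid cells. Tables and figures used Python 3.11.15 with pandas 2.3.3 and matplotlib 3.10.9.

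Alternatives were DESeq2 1.42.0, edgeR with total library sizes or with DESeq2's size factors, no filter or a CPM above 1 in all 8 samples, the replicate number as a block, 1 RUVs factor, glmTreat, each sample left out and, added after seeing the data, *Gm26917* left out. Smallest abundances cover counting error only.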

Additional observations from a re-analysis of the deposited data

How the results depend on the processing

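*Mgp* was the 1 member past 2-fold under every alternative run, with a log2 fold change between -1.72 and -1.60. Every member kept its direction in every fit. With glmTreat, which tests against 2-fold, 437 of all genes passed in place of 751, 1 member passed (*Mgp*), and *Alpl* (-0.65), *Ank* (-0.37), *Slc20a2* (0.52) and *Enpp1* (-0.11) did not, by the construction of that test. Without a filter on low counts, 1206 genes were DEGs. More genes were tested in that fit, and the part of this in the higher number was not tested. *Enpp1* (-0.11) did not pass with DESeq2. With 1 sample left out, its log2 fold change lay between -0.13 and -0.10 and that of *Slc20a1* between -0.12 and -0.042, and the number of members with an adjusted p-value under 0.05 was 4 to 6; the samples concerned are named above. The cause was not tested. The ratios kept their direction with each sample left out. Library and length scaling cannot change their difference between groups, and they were not computed in the other fits. The pathway genes named by rule kept their direction in every fit. DEGs among the pathway lists numbered 8 with glmTreat (4 in place of 5 in the mineral-binding list) and 11 without a filter (2 in place of 1 in the nucleotide list, 6 in the mineral-binding list). In the fit with a replicate block, 751 genes were DEGs, and no call of a member changed. Across genes, same-numbered samples deviated from their groups with an average correlation of -0.0221, beside 0.00735 for the other pairs. The correlations thus showed no pairing by number. They cannot decide the question, since a batch correction, if already applied, could have removed a shared deviation. Depth limits *Phospho1*, at 44 to 83 counts, and the untested list genes. None of 30 groups of 4 values, from the members and the pathway DEGs other than *Bglap2*, held a sample apart from the rest by Dixon's ratio.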
